A study of Mus musculus with 6 samples.

Results

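Amino acids cross the blood-brain barrier (BBB) through membrane carriers of the solute carrier (SLC) families, and 10 of these carrier genes were examined in RNA from isolated brain microvessels. They were chosen by symbol, *Slc7a5*, *Slc3a2*, *Slc7a1*, *Slc7a3*, *Slc38a2*, *Slc38a3*, *Slc38a5*, *Slc6a6*, *Slc1a1* and *Slc1a4*, and each was found among the 23183 gene symbols of every library. Microvessels came from C57BL/6 mice of the TEKCRIF1 strain, with 3 libraries in each of the 2 groups and no treatment. WT mice carried TEK-cre with intact *Crif1* (*Crif1*+/+), and KO mice carried TEK-cre with both *Crif1* copies floxed (*Crif1* flox/flox), so both groups express the Cre recombinase. The age of the sequenced mice was not given in the sources used here. The Tek promoter that drives Cre is active in endothelial cells (ECs) and also in blood cell lineages, and the microvessel fraction was not sorted, so the RNA is that of all cells in it. In such RNA, fewer cells of a type and less RNA per cell cannot be told apart. *Crif1*, encoded by *Gadd45gip1*, is a factor of the mitochondrial ribosome that is needed to make the subunits of oxidative phosphorylation encoded in mitochondrial DNA.

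Large neutral amino acids enter the brain mainly through LAT1, a heterodimer of the light chain encoded by *Slc7a5*, which carries the substrate, and the heavy chain 4F2hc encoded by *Slc3a2*, which brings the complex to the cell surface. Arginine and lysine use the cationic carriers CAT1 (*Slc7a1*) and CAT3 (*Slc7a3*), and glutamine and other small neutral amino acids use the sodium-coupled carriers SNAT2, SNAT3 and SNAT5 (*Slc38a2*, *Slc38a3* and *Slc38a5*). *Slc6a6* encodes the taurine transporter TAUT, *Slc1a1* the glutamate and cysteine transporter EAAC1, and *Slc1a4* the alanine, serine and cysteine exchanger ASCT1. When amino acids run short, GCN2 and ATF4 raise the transcription of several of these carriers, and mTORC1 on the lysosome reads the amino acid supply.

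The deposited unit, FPKM, is the number of fragments per kilobase of exon scaled to the mapped total of a library. Depth, estimated from the spacing of the lowest values, was 6600000 to 12000000 fragments per library, and 3 fragments on 1 kb of transcript correspond to 0.25 to 0.45 FPKM. *Gadd45gip1* read 18.8, 15.3 and 16.5 FPKM in WT mice and 10.8, 7.54 and 10.4 FPKM in KO mice, so every KO library was below every WT library, with a log2 fold change of −0.77 (SE 0.22). KO mice were compared with WT mice by limma on log2(FPKM + 1) over the 14247 genes whose mean reached 1 FPKM, and 838 of them (5.88%) had an unadjusted p under 0.05. After Benjamini-Hochberg adjustment, 0 genes passed 0.05, and the smallest adjusted limma p was 0.841. Leaving out 1 library moved the number with an unadjusted p under 0.05 to 450 without WT 2, 510 without KO 1 and 1871 without KO 2. Endothelial markers (*Pecam1*, *Cldn5*, *Cdh5* and 7 others) summed to 947 to 1270 FPKM in WT and 859 to 1140 FPKM in KO mice. The 6 choroid plexus markers (*Ttr*, *Folr1*, *Kl*, *Clic6*, *Kcne2* and *Otx2*) summed to 2910 to 3360 FPKM in WT mice but to 8930, 3000 and 10800 FPKM in KO 1, KO 2 and KO 3, and each of the 6 was higher in KO 1 and KO 3 than in the other libraries. KO 2 thus stood apart from KO 1 and KO 3, and results that rest on 1 library are also given without it. An exact two-sided permutation test of 3 libraries against 3 cannot give a p below 0.1.

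In WT mice the carriers fell into a high, an intermediate and a low range. *Slc38a3* had the highest mean, 143 ± 10.7 FPKM (SD, n = 3), followed by *Slc7a5* at 139 ± 14.7, *Slc3a2* at 133 ± 11.6 and *Slc38a2* at 118 ± 22.3 FPKM. The WT values of these 4 genes overlapped one another, so their order was not resolved. *Slc6a6* at 93.2 ± 6.94 FPKM overlapped *Slc38a2* and lay below *Slc38a3*, *Slc7a5* and *Slc3a2*. Below them, *Slc38a5* at 68.1 ± 15.4, *Slc7a1* at 39.6 ± 8.07, *Slc1a4* at 23.4 ± 6.22, *Slc1a1* at 8.49 ± 2.08 and *Slc7a3* at 2.28 ± 0.717 FPKM did not overlap their neighbours in WT mice. Among all genes tested, *Slc38a3*, *Slc3a2* and *Slc7a5* ranked within the top 2.52%, 3.28% and 3.35% by mean level, whereas *Slc1a1* and *Slc7a3* ranked at 56.4% and 84.8% from the top. FPKM is a level per kilobase, so these levels can be set side by side between genes.

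The lower end of this order was the same in every library. *Slc7a1*, *Slc1a4*, *Slc1a1* and *Slc7a3* held ranks 7, 8, 9 and 10 in all 6 libraries, and *Slc38a3* was first in 5 of 6. In KO mice the group values of *Slc7a1* overlapped those of *Slc1a4*, and those of *Slc1a1* overlapped those of *Slc7a3*. The 10 carriers summed to 766, 824 and 712 FPKM in WT 1 to WT 3 and to 688, 621 and 730 FPKM in KO 1 to KO 3. The sums averaged 767 ± 56.0 FPKM in WT and 680 ± 54.7 FPKM in KO mice, groups that overlapped (exact permutation p = 0.2).

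**Figure D1:**
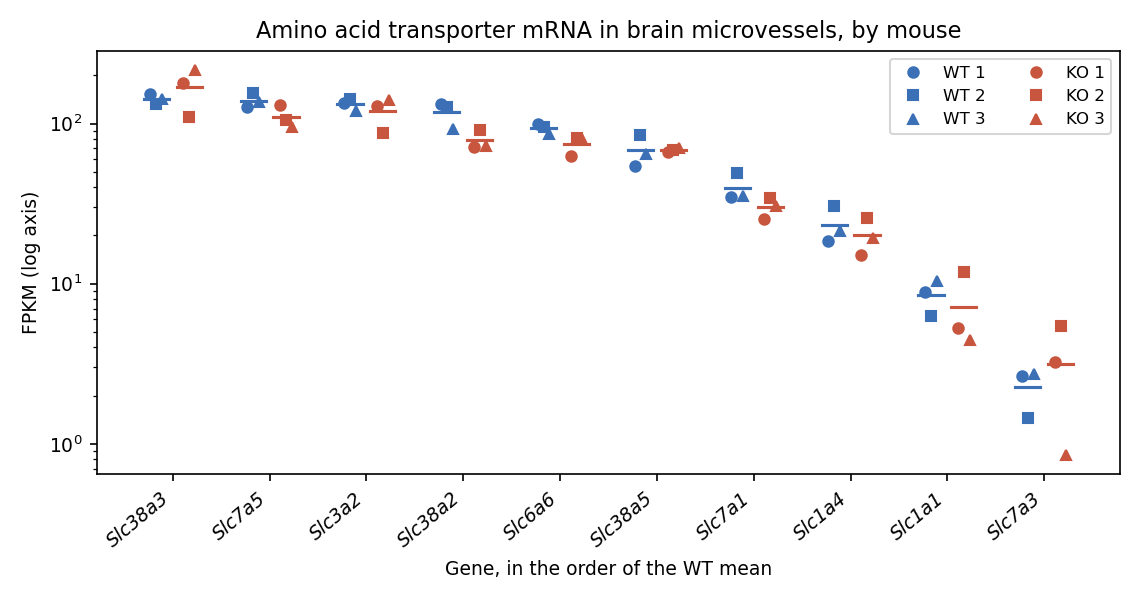
FPKM (log axis) of the 10 carriers in each library, ordered by the WT mean; points are libraries (blue WT, red KO, marker shape for the replicate number) and lines are group means. The first 5 genes lie close together at the upper end, and the last 4 keep their order in all 6 libraries.

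Between genotypes, 7 of the 10 carriers had a log2 fold change (KO minus WT) below 0 and 3 above it, with a median of −0.25, whereas 50.8% of all genes tested lay below 0 with a median of −0.01. *Slc38a2* alone had an unadjusted p under 0.05 (1 of 10, against 5.88% of all genes in either direction and 3.11% in the lower direction). In 3 carriers, *Slc38a2*, *Slc7a1* and *Slc6a6*, all KO values were below all WT values, and 0 carriers showed the opposite. Among all genes, 5.7% were without overlap in the lower direction. That count of 3 depends on scaling. It was 1 with a trimmed-mean factor (*Slc6a6*), 1 after quantile normalization (*Slc7a5*) and 2 after GC correction of each library (*Slc38a2* and *Slc6a6*). It was 0 when libraries were scaled to the endothelial markers, which raised every log2 fold change by 0.15. The 5.7% belongs to the values as deposited, and the share of all genes was not computed under these other settings. Of the endothelial markers, *Cdh5*, the gene of VE-cadherin, differed by −1.03 on the log2 scale without overlap (exact permutation p = 0.1). *Emcn* was without overlap in the other direction, at 0.37 (exact permutation p = 0.1). The mean difference of the 9 markers other than *Cdh5* was −0.05. The adjusted limma p of the 10 carriers ran from 0.841 to 0.991.

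**Figure D2:**
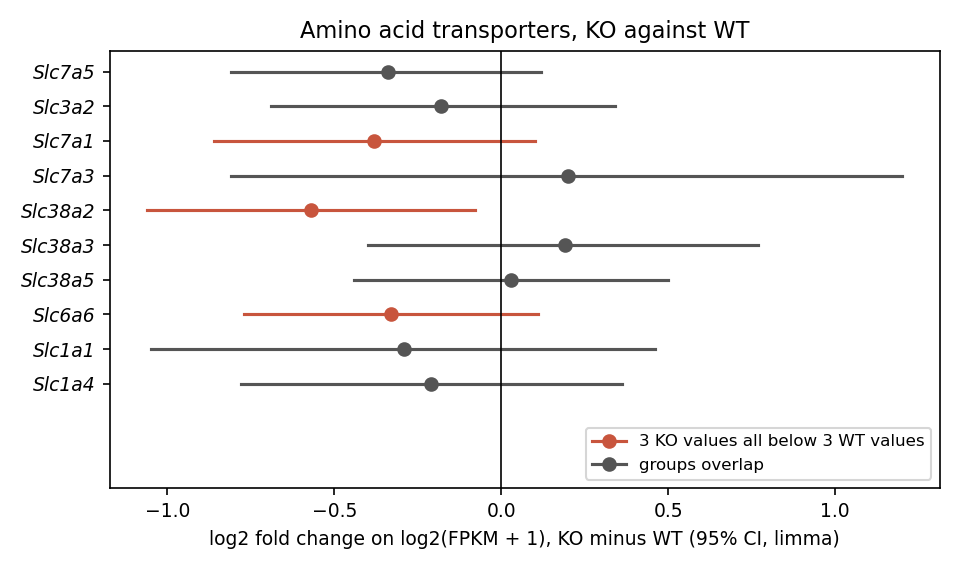
Log2 fold change of each carrier, KO minus WT, on log2(FPKM + 1) with its limma 95% confidence interval; red marks the 3 genes whose KO values are all below their WT values. The interval of *Slc38a2*, −1.06 to −0.08, excludes 0, and the other 9 intervals include it.

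Leaving out each library in turn kept 6 of the 10 carriers on 1 side of 0 and turned 4. *Slc7a5*, *Slc7a1*, *Slc38a2*, *Slc6a6*, *Slc1a1* and *Slc1a4* remained below 0 in all 6 fits. Without KO 2, *Slc3a2* moved to 0.03 and *Slc7a3* to −0.20, without KO 3 *Slc38a3* moved to −0.02, and without WT 1 *Slc38a5* moved to −0.11. Log2 fold changes also fell with GC content across genes (Spearman rho −0.347 over 14173 genes, which are not independent). The transcripts of the carriers range from 44.7% GC in *Slc38a2* to 56.3% in *Slc7a5*, and after GC correction of each library these genes stood at −0.67 and −0.22. With KO 2 left out, 4 carriers had an unadjusted p under 0.05, in a fit where 13.1% of all genes did. The count was 0 without WT 1 (4.65% of all genes), without WT 2 (3.16%), without KO 1 (3.58%) or without KO 3 (6.97%).

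**Figure D3:**
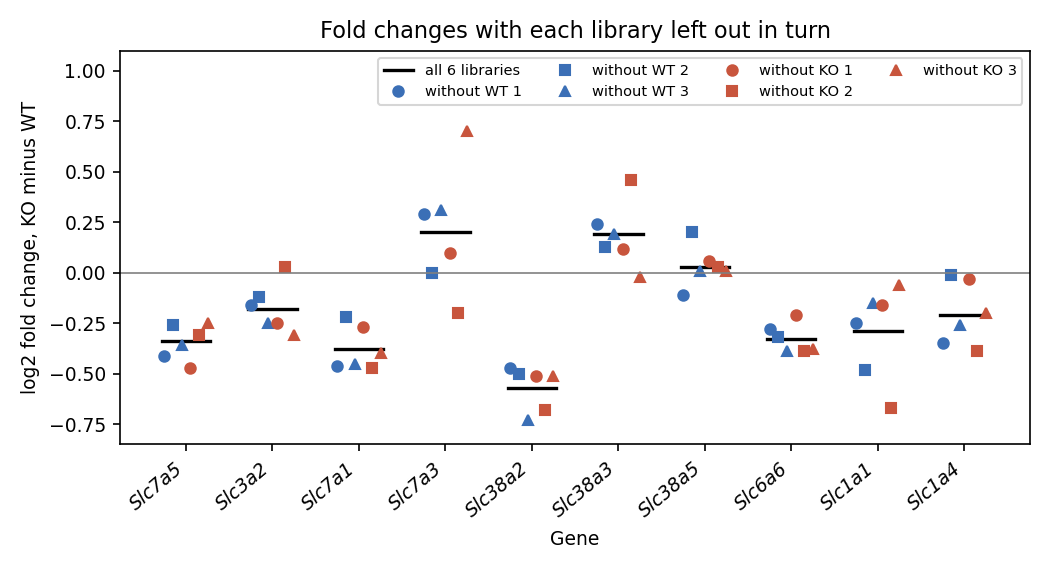
Log2 fold change of each carrier (KO minus WT) with all 6 libraries (black line) and with each library left out (points, blue for a WT and red for a KO library, marker shape for its replicate number). *Slc38a2* stays between −0.73 and −0.47, while *Slc7a3* ranges from −0.20 to 0.70.

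Of the SLC38 carriers, *Slc38a2* showed the largest difference between genotypes among the 10 genes. The gene (ENSMUSG00000022462.7) spans 96687392 to 96699730 on the minus strand of chromosome 15 in GRCm38, with 10 exons in its longest transcript. It read 133, 127 and 92.0 FPKM in WT mice and 71.8, 91.6 and 72.0 FPKM in KO mice. KO 1 and KO 3 were well below the WT values, and KO 2 was just under WT 3. The KO mean of 78.5 ± 11.4 FPKM was 66.7% of the WT mean, a log2 fold change of −0.57 (SE 0.22, limma p = 0.0276, adjusted p = 0.841, exact permutation p = 0.1). The unadjusted p was above 0.05 without WT 1 (−0.47), without WT 2 (−0.50), without KO 1 (−0.51) or without KO 3 (−0.51), and with endothelial scaling (−0.42). SNAT2 is the member of its family best known for induction by amino acid shortage.

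The bases upstream of *Slc38a2* and *Slc7a1* are shown because these carriers had no overlap between genotypes. The sequences are from RefSeq (GRCm38.p6), 250 bases ending at the transcription start, both on the minus strand, at chr15:96699729-96699978 for *Slc38a2* and chr5:148399905-148400154 for *Slc7a1*, with a GC content of 72.0% and 62.4%. Capitals mark a GC box, the motif bound by Sp family factors, searched as GGGCGG on both strands and found here on the other strand.
Slc38a2: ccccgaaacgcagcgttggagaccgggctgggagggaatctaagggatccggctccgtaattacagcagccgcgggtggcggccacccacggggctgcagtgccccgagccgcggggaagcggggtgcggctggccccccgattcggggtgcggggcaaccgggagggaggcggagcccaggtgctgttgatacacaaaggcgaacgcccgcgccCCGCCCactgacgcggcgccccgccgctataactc
Slc7a1: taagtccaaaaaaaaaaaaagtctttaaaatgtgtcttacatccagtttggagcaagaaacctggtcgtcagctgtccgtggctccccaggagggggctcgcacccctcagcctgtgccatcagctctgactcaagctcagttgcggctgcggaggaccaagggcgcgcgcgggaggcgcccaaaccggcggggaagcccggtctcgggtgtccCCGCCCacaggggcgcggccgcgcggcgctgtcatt
The GC box began 35 bases before the start in *Slc38a2* and 36 bases before it in *Slc7a1*. It occurred in 32.7% of the 32851 promoter windows searched and in 6 of the 7 windows of the carriers. The core of the amino acid response element, searched as TGATGNAA on both strands, occurred in 3.45% of all windows and in 0 of these 7. With so low a share and so few windows, that count is uninformative. Only 250 bases upstream were searched, so an element downstream of the start or farther upstream could not be found. The 7 windows belong to 6 of the 10 genes, and *Slc7a5*, *Slc7a3*, *Slc38a3* and *Slc6a6* are named only.

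*Slc38a3* and *Slc38a5* encode the system N carriers, which exchange glutamine, histidine and asparagine. *Slc38a3* (chromosome 9, 107650634 to 107669530, minus strand, 15 exons) read 153, 132 and 143 FPKM in WT mice and 179, 110 and 216 FPKM in KO mice. KO 1 and KO 3 were above every WT library and KO 2 was below every WT library, so the KO values enclosed the WT values. The log2 fold change was 0.19 (95% CI −0.40 to 0.77, limma p = 0.494, adjusted p = 0.948, exact permutation p = 0.6). It was 0.46 without KO 2 (unadjusted p under 0.05) and −0.02 without KO 3. The libraries in which *Slc38a3* was high were also those with high choroid plexus markers, and the part of these cells in its level was not tested.

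*Slc38a5* (chromosome X, 8271133 to 8280179, plus strand, 15 exons) read 54.6, 84.8 and 64.7 FPKM in WT mice and 66.3, 68.8 and 70.5 FPKM in KO mice. All KO values lay inside the WT range, and their SD of 2.1 FPKM was the smaller of the groups. The means were 68.1 ± 15.4 FPKM in WT and 68.5 ± 2.1 FPKM in KO mice, with a log2 fold change of 0.03 (95% CI −0.44 to 0.50, limma p = 0.879, exact permutation p = 0.8). The interval therefore leaves room for a ratio of KO to WT of 0.739 to 1.42 in FPKM + 1.

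Both chains of LAT1 were among the most abundant carriers, and the groups overlapped for each. *Slc7a5* (ENSMUSG00000040010.10, chromosome 8, 121881150 to 121907694, minus strand, 10 exons) read 126, 155 and 137 FPKM in WT mice and 130, 105 and 95.5 FPKM in KO mice. KO 2 and KO 3 were below the lowest WT library, and KO 1 was above it. The means were 139 ± 14.7 and 110 ± 17.9 FPKM, a log2 fold change of −0.34 (SE 0.21, 95% CI −0.81 to 0.12, limma p = 0.13, adjusted p = 0.848, exact permutation p = 0.2). The *Slc7a5* locus overlaps Gm20388, annotated on the opposite strand and not listed among the symbols, and strand use in the counting was not given in the sources used here.

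*Slc3a2* (chromosome 19, 8706882 to 8723369, minus strand, 10 exons) read 135, 143 and 120 FPKM in WT mice and 129, 87.9 and 141 FPKM in KO mice. KO 2 alone was below the WT range, and KO 1 and KO 3 were inside it. The log2 fold change was −0.18 (95% CI −0.69 to 0.34, limma p = 0.458, exact permutation p = 0.6), and it was 0.03 without KO 2. In both groups the 2 chains had similar levels per kilobase. The ratio of *Slc7a5* to *Slc3a2* was 0.932, 1.08 and 1.13 in WT mice and 1.0, 1.19 and 0.675 in KO mice. KO 3 was the only library with a ratio well below 1. On the log2 scale the KO minus WT difference of the ratio was −0.17 (exact permutation p = 0.7), and 0.06 without KO 3. This ratio is taken within a library and does not depend on scaling between libraries. Corrections that act by gene did change it. The log2 difference was −0.11 with GC correction of each library and −0.10 with length and GC correction.

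By their pattern over the 6 libraries, the genes most like *Slc7a5* were *Oasl2*, *Sh2d3c*, *Midn*, *Cherp* and *Trp53*, with Pearson r of 0.992, 0.988, 0.984, 0.978 and 0.975 on log2(FPKM + 1). Each of them, like *Slc7a5*, was highest in WT 2 and lowest in KO 3. *Trp53* read 25.8, 34.9 and 26.6 FPKM in WT mice and 23.0, 17.7 and 16.3 FPKM in KO mice. These values are a description over 6 libraries, and all genes of a library share its depth and its trend with GC content. Its partner *Slc3a2* had an r of 0.35 with *Slc7a5*, *Slc38a2* an r of 0.56 and *Slc38a3* an r of −0.33.

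The cationic carriers lay far apart in level. *Slc7a1* (ENSMUSG00000041313.14, chromosome 5, 148327410 to 148399904, minus strand, 13 exons) read 34.6, 48.9 and 35.2 FPKM in WT mice and 25.5, 34.1 and 30.6 FPKM in KO mice. The groups did not overlap, but KO 2 and WT 1 were close together. The mean was 39.6 ± 8.07 FPKM in WT and 30.0 ± 4.34 FPKM in KO mice (75.9% of WT), a log2 fold change of −0.38 (SE 0.22, 95% CI −0.86 to 0.10, limma p = 0.11, adjusted p = 0.841, exact permutation p = 0.1). It lay between −0.47 (without KO 2) and −0.22 (without WT 2) with 1 library left out. *Slc7a1* had its single high value in WT 2.

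*Slc7a3* (chromosome X, 101079210 to 101086020, minus strand, 13 exons) was near the lower end of the genes tested. It read 2.64, 1.45 and 2.74 FPKM in WT mice and 3.23, 5.43 and 0.851 FPKM in KO mice, or an estimated 28.1 to 98.6 fragments per library. KO 2 had the highest and KO 3 the lowest value of all 6 libraries. The log2 fold change was 0.20 (95% CI −0.81 to 1.20, limma p = 0.67, exact permutation p = 0.8), and −0.20 without KO 2 or 0.70 without KO 3. At this level the log2(FPKM + 1) scale understates a change in FPKM, and the interval is wide in both directions.

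*Slc6a6*, the taurine transporter gene (chromosome 6, 91684053 to 91759066, plus strand, 15 exons), was the third carrier without overlap. It read 99.1, 94.9 and 85.6 FPKM in WT mice and 62.4, 80.8 and 79.7 FPKM in KO mice. KO 1 was the lowest, and KO 2 and KO 3 were close under WT 3. The mean was 93.2 ± 6.94 FPKM in WT and 74.3 ± 10.3 FPKM in KO mice (79.7% of WT), a log2 fold change of −0.33 (SE 0.20, limma p = 0.125, adjusted p = 0.848, exact permutation p = 0.1). Without KO 2 it was −0.39 (unadjusted p under 0.05), and without KO 1 it was −0.21. The *Slc6a6* locus overlaps 4930517G19Rik and Gm44981 on the opposite strand and Gm45828, none of them listed among the symbols.

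The SLC1 carriers, which take up acidic amino acids or exchange small neutral ones, varied between mice of the same genotype. *Slc1a1* (chromosome 19, 28835049 to 28913960, plus strand, 12 exons) read 8.87, 6.25 and 10.4 FPKM in WT mice and 5.29, 11.8 and 4.46 FPKM in KO mice. KO 2 was the highest library, and KO 1 and KO 3 were the lowest. The log2 fold change was −0.29 (95% CI −1.05 to 0.46, limma p = 0.406, exact permutation p = 0.5), and −0.67 without KO 2 (unadjusted p under 0.05). It was −0.06 without KO 3, −0.15 without WT 3 and −0.16 without KO 1. The span of *Slc1a1* overlaps that of 4430402I18Rik on the opposite strand, which is listed among the symbols. Whether their exons overlap was not examined, and reads of shared exons could not be told apart without strand.

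*Slc1a4* (chromosome 11, 20302180 to 20332713, minus strand, 8 exons) read 18.5, 30.4 and 21.2 FPKM in WT mice and 15.2, 25.7 and 19.3 FPKM in KO mice. The spread within each group exceeded the gap between them, and WT 2 and KO 2 were the highest of their groups. The log2 fold change was −0.21 (95% CI −0.78 to 0.36, limma p = 0.435, exact permutation p = 0.5). It was −0.01 without WT 2 and −0.03 without KO 1.

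Markers of other cell types also varied between libraries. The 8 neuron markers (*Snap25*, *Syt1*, *Rbfox3*, *Stmn2*, *Syn1*, *Nefl*, *Camk2a* and *Gad1*) summed to 213, 292 and 400 FPKM in WT mice and 210, 363 and 192 FPKM in KO mice. They were highest in WT 3 and KO 2, the 2 libraries in which *Slc1a1* was also highest, and 4 of the 8 were higher there than in all other libraries. The 8 astrocyte markers (*Aqp4*, *Gfap*, *Gja1*, *Aldh1l1*, *Agt*, *Gjb6*, *Aldoc* and *S100b*) summed to 707 to 863 FPKM in WT and 511 to 571 FPKM in KO mice, and 7 of 8 had a lower KO mean. The 6 fibroblast markers (*Col1a1*, *Col1a2*, *Dcn*, *Lum*, *Pdgfra* and *Col3a1*) summed to 1460 to 2210 FPKM in WT and 980 to 1370 FPKM in KO mice, and 6 of 6 had a lower KO mean. The fibroblast sum is mostly *Col1a1* and *Col1a2*, the 2 of the 6 whose groups did not overlap. The mean log2 level of the 6 overlapped (6.86 in WT 3 against 6.94 in KO 1, exact permutation p = 0.3). The astrocyte sum separated the genotypes in the same direction as *Slc38a2*, *Slc7a1* and *Slc6a6*. Within the KO group the order differed. KO 2 had the lowest astrocyte sum, 511 FPKM, but the highest KO value of *Slc38a2* (91.6 FPKM), *Slc7a1* (34.1 FPKM) and *Slc6a6* (80.8 FPKM). The part of astrocytes in the carriers' values was not tested. No marker of the 9 cell types was at 0 in any library. Pericyte markers summed to 820 to 1320 and 860 to 984 FPKM, smooth muscle markers to 269 to 601 and 291 to 808 FPKM, oligodendrocyte markers to 452 to 621 and 271 to 508 FPKM, and microglia markers to 199 to 237 and 167 to 204 FPKM in WT and KO mice. The KO mean was lower for 7 of 8 pericyte, 7 of 8 neuron, 7 of 8 oligodendrocyte, 6 of 8 microglia and 6 of 10 endothelial markers, and for 0 of 6 smooth muscle markers. The median log2 fold change was −0.28 for pericyte, −0.24 for neuron, −0.44 for oligodendrocyte, −0.38 for astrocyte and −0.36 for fibroblast markers. It was −0.13 for endothelial, −0.21 for microglia, 0.38 for smooth muscle and 1.06 for choroid plexus markers. The median of the carriers was −0.25, and the part of these cells in that median was not tested.

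**Figure D4:**
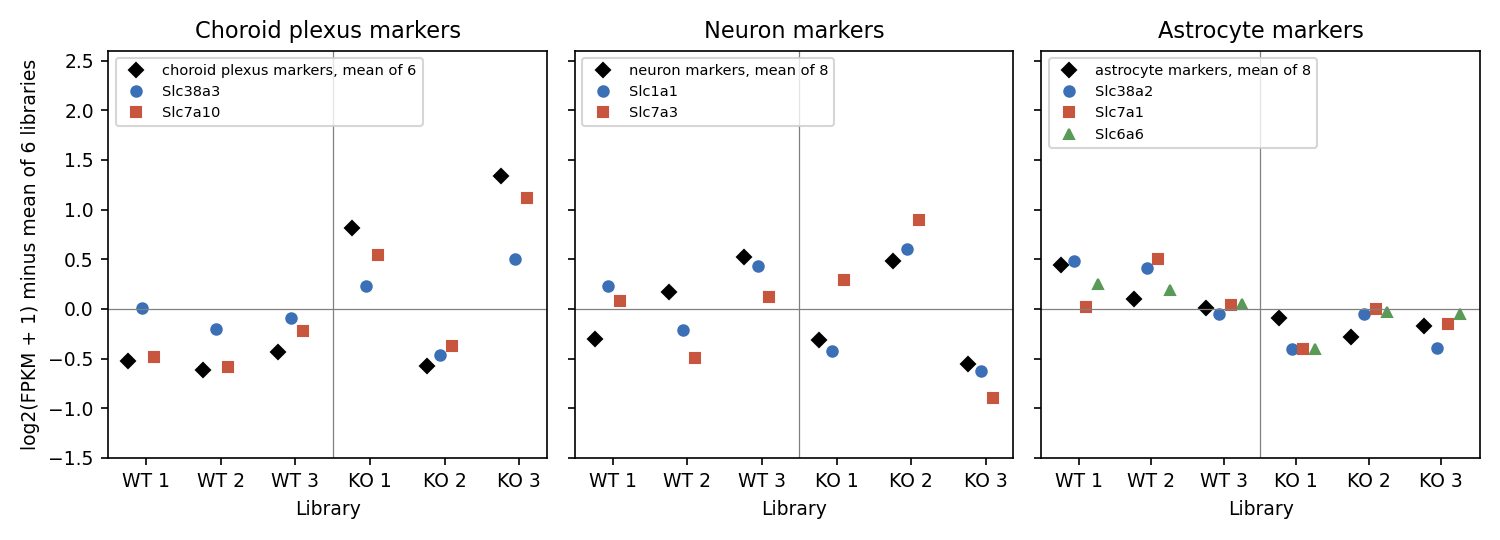
Mean log2(FPKM + 1) of choroid plexus (6), neuron (8) and astrocyte (8) markers (black diamonds) beside carriers, each centred on its mean over the 6 libraries; the grey vertical line separates WT from KO libraries. *Slc38a3* and *Slc7a10* are highest in KO 1 and KO 3 with the choroid plexus markers, and *Slc1a1* is highest in WT 3 and KO 2 with the neuron markers.

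A list of 47 other amino acid carriers was read from the same comparison, of which 33 were tested and 14 were too low. Of the 33, 24 had a log2 fold change below 0 and 9 above it, with a median of −0.20. In this list 3 carriers had an unadjusted p under 0.05 (9.09%, against 5.88% of all genes), 1 lower and 2 higher in KO mice (2.77% of all genes were higher). Leaving out 1 library moved that count to 1 without WT 1 (4.65% of all genes in that fit), 1 without WT 2 (3.16%), 5 without WT 3 (4.9%) and 7 without KO 2 (13.1%). None of the 33 passed after adjustment. Groups without overlap occurred for 3 carriers that were higher in KO mice, against 5.37% of all genes, and for 2 that were lower, against 5.7% of all genes.

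*Slc6a12*, which encodes the betaine and GABA transporter BGT1, showed the largest difference of this list. It read 50.4, 46.4 and 23.2 FPKM in WT mice and 15.1, 10.1 and 17.1 FPKM in KO mice, a log2 fold change of −1.40 (SE 0.31, limma p = 0.00119, adjusted p = 0.841, exact permutation p = 0.1). *Slc6a13*, which encodes the GABA and taurine carrier GAT2, was the most abundant SLC6 gene, with means of 183 ± 53.7 FPKM in WT and 131 ± 21.2 FPKM in KO mice and a difference of −0.45 on the log2 scale (limma p = 0.12, exact permutation p = 0.3), or −0.69 without WT 3 (unadjusted p under 0.05) and −0.25 without WT 1. *Slc6a12* and *Slc6a13* were both lowest in KO 2, as were the fibroblast, endothelial and astrocyte marker sums, and the part of these cells in their levels was not tested.

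*Slc7a10*, the gene of the alanine, serine and cysteine exchanger asc-1, read 20.6, 19.1 and 24.9 FPKM in WT mice and 43.1, 22.4 and 64.6 FPKM in KO mice. KO 1 and KO 3 were high and KO 2 lay among the WT values, as for the choroid plexus markers. The log2 fold change was 0.86 (SE 0.33, limma p = 0.027, adjusted p = 0.841, exact permutation p = 0.2), and the limma p exceeded 0.05 without WT 1 (0.84), without WT 2 (0.78), without KO 1 (0.81) or without KO 3 (0.52). *Slc6a15*, a carrier of branched-chain amino acids and proline, read 7.55, 10.5 and 13.4 FPKM in WT mice and 13.6, 14.7 and 36.6 FPKM in KO mice. Its log2 fold change of 0.87 (SE 0.36, limma p = 0.0363, adjusted p = 0.841, exact permutation p = 0.1) rested largely on KO 3, and without it the value was 0.43. The limma p of *Slc6a15* also exceeded 0.05 without WT 1 (0.68) or without WT 2 (0.89), after GC correction (0.73) or length and GC correction (0.74), and, at 0.87, with no filter on low values or no trended variance. The most abundant genes of the other families were *Slc38a10*, *Slc1a3* and *Slc43a2*, with log2 fold changes of −0.34, −0.42 and −0.40 and adjusted limma p of 0.868, 0.841 and 0.841. Their unadjusted p was above 0.05, but fell under it for *Slc38a10* without KO 3 (−0.55) and for *Slc1a3* without KO 2 (−0.59) or with length and GC correction (−0.49). *Slc38a10* stood at −0.10 without KO 2, and *Slc1a3* at −0.23 without WT 1.

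**Figure D5:**
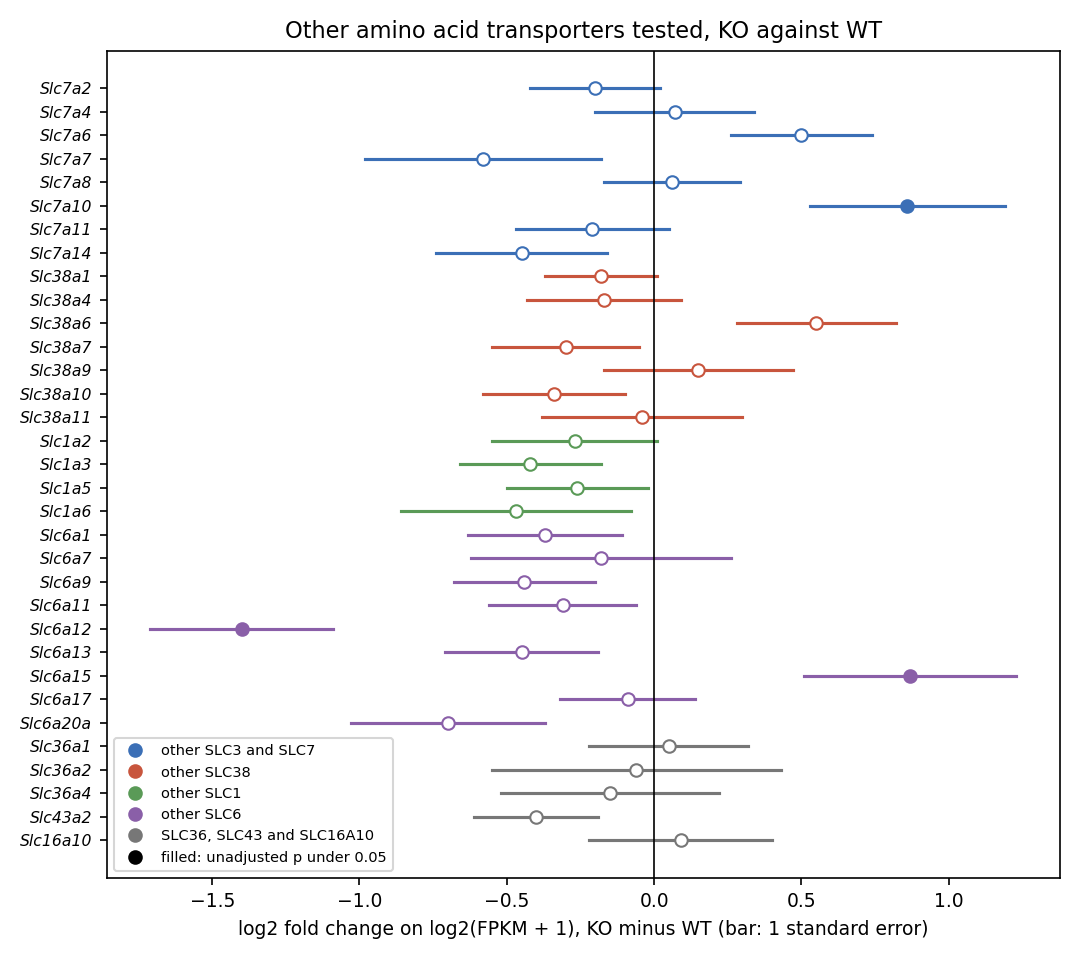
Log2 fold change (KO minus WT) of the 33 other amino acid carriers tested, with bars of 1 standard error, coloured by family; filled points have an unadjusted limma p under 0.05. The 3 filled genes are *Slc6a12* at −1.40, *Slc7a10* at 0.86 and *Slc6a15* at 0.87.

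The amino acid response list held 26 genes, targets and partners of ATF4 such as *Asns*, *Chac1* and *Ddit3*, and 25 were tested. In this list 5 genes had an unadjusted p under 0.05 (20%, against 5.88% of all genes), in both directions. Lower in KO mice were *Ddit3*, a stress-induced transcription factor (−0.65), *Aldh18a1*, an enzyme of proline synthesis (−0.53), and *Cebpb*, a transcription factor of the stress response (−0.71). Higher in KO mice were *Vldlr*, a lipoprotein receptor (0.68), and *Eif4ebp1*, a repressor of translation initiation (0.56). The values in parentheses are log2 fold changes. The adjusted limma p of each was 0.841, the median of the list was −0.02, and *Atf4* itself read 28.2 ± 3.25 FPKM in WT and 34.5 ± 9.78 FPKM in KO mice (log2 fold change 0.25, exact permutation p = 0.4). The count of 5 became 0 without WT 2 (3.16% of all genes in that fit), 1 without KO 3 (6.97%), 2 without WT 3 (4.9%) and 2 without KO 1 (3.58%). It was 2 with endothelial scaling (901 of all genes), 2 with GC correction (668) and 3 with length and GC correction (711). *Cebpb* moved to −0.47 without KO 3, −0.51 with GC correction and −0.47 with length and GC correction, each with an unadjusted p above 0.05. *Nupr1*, the most abundant gene of the list, differed by −0.51 on the log2 scale (limma p = 0.127, exact permutation p = 0.4), or −0.23 without WT 1 and −0.26 without KO 2.

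The list of amino acid sensing by mTORC1 held 26 genes of the Rag, Ragulator, GATOR, sestrin, folliculin and TSC groups among others, and 26 were tested. *Sesn2* also stands in the response list and *Slc38a9* among the other carriers. By limma 0 of them had an unadjusted p under 0.05 (against 5.88% of all genes), and the median log2 fold change was −0.03. The count was 1 without WT 3 (4.9% of all genes) and 1 without KO 2 (13.1%). *Lamtor2*, a subunit of the Ragulator scaffold and the most abundant gene of the list, read 119, 75.2 and 116 FPKM in WT mice and 179, 53.6 and 102 FPKM in KO mice. Its log2 fold change was −0.03 (adjusted limma p = 0.994, exact permutation p = 1.0). KO 1 was the highest and KO 2 the lowest library for *Lamtor2*, and its sign turned without WT 1 (0.09), without WT 3 (0.07) or without KO 2 (0.41).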

How the data were processed

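RNA was extracted from isolated cerebral microvessels with TRIzol and sequenced, 1 library for each of 3 WT and 3 KO samples. Nothing in the labels says that the samples come from separate animals, although the study's text gives 3 mice per group, so p-values measure the spread between these samples. The authors checked reads with FastQC, trimmed them with FASTX_Trimmer and BBMap, mapped them with TopHat (build mm10, per the submitters' processing notes) and deposited FPKM values. A normalization between libraries was not given in the sources used here. The kit is directional, but whether counting used strand is not given in the sources used here.

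The deposited values, as log2(FPKM + 1), entered limma 3.58.1 (R 4.3.3, trended variance), with genotype as the only term, over 14247 genes whose mean reached 1 FPKM, with Benjamini-Hochberg adjustment over these genes. Exact two-sided permutation tests were run with Python 3.11.15 and numpy 2.4.6. Positions and exon numbers are from GENCODE M21 (GRCm38), with length and GC content for 98.5% of symbols. Depth was estimated from the lowest FPKM values. Floors cover counting error only, and intervals of fold changes cover the spread between libraries. The fit was tested on simulated data.

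The carriers and gene lists were chosen with earlier results of these data known. Named genes are the 10 carriers, *Gadd45gip1*, the listed genes with an unadjusted p under 0.05, the most abundant gene of each list or family, the marker genes and the 5 genes most like *Slc7a5*. *Atf4* was named after its values were seen. Alternatives were other filters, a pseudocount of 0.1, scaling, corrections for GC and length, a replicate block, and leaving out each library.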

Additional observations from a re-analysis of the deposited data

How the results depend on the processing

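Over 179 alternative values of the 10 carriers, 163 kept their direction and their side of an unadjusted p of 0.05, 6 changed sign, 5 lost and 5 gained an unadjusted p under 0.05, and the adjusted p ran from 0.236 to 1.0. *Slc7a3* has no value with a minimum of 5 FPKM, because its mean is lower. Scaling to the endothelial markers gave −0.42 for *Slc38a2*, 0 carriers, 5 other carriers and 2 response genes with an unadjusted p under 0.05 (901 of all genes), and 0.12 for *Lamtor2*. GC correction of each library left 2 response genes and 1 sensing gene (668 of all genes), and *Lamtor2* at 0.11, and length and GC correction left 3 response genes and 1 sensing gene (711 of all genes). The number of carriers without overlap was 1 with a trimmed-mean factor, 1 with quantile normalization and 0 with endothelial scaling. The share of all genes without overlap was not computed under these scalings. The cause of these changes was not tested.

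WT 1, WT 2, WT 3 and KO 3 have hyphenated labels in the files, whereas KO 1 and KO 2 do not. Keeping the hyphenated libraries, an alternative chosen after seeing the data, leaves 1 KO library, which is assumed to vary like the WT group. It gave −0.54 for *Slc7a5*, 0.09 for *Slc3a2*, −0.80 for *Slc7a3*, 0.60 for *Slc38a3*, 0.09 for *Slc38a10* and 0.01 for *Lamtor2*, with 1399 genes, 3 carriers and 6 other carriers at an unadjusted p under 0.05.

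When each library was left out in turn, the log2 fold change ran from −0.47 to −0.25 for *Slc7a5*, −0.31 to 0.03 for *Slc3a2*, −0.47 to −0.22 for *Slc7a1*, −0.20 to 0.70 for *Slc7a3*, −0.73 to −0.47 for *Slc38a2*, −0.02 to 0.46 for *Slc38a3*, −0.11 to 0.20 for *Slc38a5*, −0.39 to −0.21 for *Slc6a6*, −0.67 to −0.06 for *Slc1a1*, −0.39 to −0.01 for *Slc1a4* and −0.45 to 0.41 for *Lamtor2* (0.09 without WT 1, 0.07 without WT 3). The log2 ratio of *Slc7a5* to *Slc3a2* ran from −0.34 to 0.06. The number with an unadjusted p under 0.05 ran from 450 to 1871 for all genes, 0 to 4 for the carriers, 1 to 7 for the other carriers, 0 to 5 for response genes and 0 to 1 for sensing genes, and 0 to 4 genes had an adjusted p under 0.05.

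The replicate numbers were not taken to pair the samples, since deviations of same-numbered samples correlated at 0.037, 0.027 and 0.002, and WT 1 correlated best with KO 3 (0.046). With a replicate block, 871 genes had an unadjusted p under 0.05, 0 had an adjusted one, and *Slc38a2* kept a log2 fold change of −0.57. The block changed no call among the 10 carriers, and the counts were 1 carrier, 4 other carriers and 4 response genes. *Aldh18a1*, at −0.53, was the response gene that lost its unadjusted p under 0.05. Depth limits *Slc7a3* most, with an estimated 28.1 fragments in its lowest library.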
